A study of Homo sapiens with 183 samples.

Results

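RUVBL1 and RUVBL2 encode the AAA+ ATPases that alternate in a ring and, together with RPAP3 and PIH1D1, form the R2TP co-chaperone. URI1, UXT and PDRG1 encode prefoldin-like subunits that bind R2TP, and WDR92 encodes a WD-repeat protein found with the same particle. These 8 genes were taken by name from the 19875 gene names that each of the 8 deposited tables holds. Every one of the 8 was listed in every table and passed the filter on low values, a mean of at least 1 TPM (a transcript's share of all transcripts in a library, corrected for length), in every comparison.

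Messenger RNA was measured by poly-A RNA sequencing in 183 libraries of 9 human cancer cell lines. The knockout libraries came from Cas9-expressing pancreatic ductal adenocarcinoma lines collected on day 5 after infection with a vector carrying an sgRNA. Those lines were AsPC-1 and SUIT-2, which the paper describes as classical, T3M-4 and BxPC-3, described as basal-like, and CFPAC-1. The sources used here give no class for CFPAC-1. RUVBL1 was targeted (sgRUVBL1) in AsPC-1 experiments 2 and 3, CFPAC-1 experiment 1, T3M-4 experiment 2 and BxPC-3 experiment 2. RUVBL2 was targeted (sgRUVBL2) in the same experiments except AsPC-1 experiment 2. The control sgRNA, sgRosa, targets the ROSA26 locus and went with Cas9 as well. The other knockouts were of KLF5, SERPINB5, CHD4, CDK1 and RPA3, of which CDK1 and RPA3 served as genes that dividing cells need. Where more than 1 sgRNA was used for a gene, as for RUVBL1, RUVBL2 and the control, the labels do not say which library carried which, and the infected cells were bulk populations, not clones. CB-6644, an allosteric inhibitor of the RUVBL1/2 ATPase, was given for 24 h beside DMSO to T84 (colorectal), A-375 (melanoma), H1048 (small-cell lung) and RH30 (alveolar rhabdomyosarcoma) cells without a vector. AsPC-1 and T3M-4 received it after infection with a lentiviral vector, either empty or with the cDNA of an inhibitor-resistant form (RUVBL1 A62T, RUVBL2 dF109), as G418-selected bulk populations. Each of these 6 vector groups had 1 DMSO library and 3 CB-6644 libraries. Nothing in the labels ties replicates to separate cultures, so the p-values measure the spread between libraries, which may be technical.

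R2TP works with HSP90 to assemble and stabilise large complexes. Its known clients include the PIKK kinases, the RNA polymerases and the box C/D snoRNP particles, and RUVBL1 and RUVBL2 are also subunits of the INO80, SRCAP and TIP60/EP400 chromatin complexes. RPAP3 binds HSP90 through its TPR domains and carries the ring-binding domain, PIH1D1 recognises phosphorylated clients and adaptors, and URI1 and UXT make up the core of the prefoldin-like module. Genetic screens place both ATPases among the genes that most cell lines need. Only mRNA was measured here.

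On hg38 the genes lie on 6 chromosomes, and all 8 are annotated as protein coding. RUVBL1 covers chr3:128064778-128153914 on the minus strand and RUVBL2 chr19:48993562-49015970 on the plus strand. PIH1D1 (chr19:49446298-49453497, minus strand) lies on the same chromosome as RUVBL2, and URI1 covers chr19:29923644-30016612 on the plus strand. RPAP3 covers chr12:47661249-47706030, PDRG1 chr20:31944337-31952046 and UXT chrX:47651796-47659180, all on the minus strand. WDR92 is named DNAAF10 in the annotation and covers chr2:68122936-68157549 on the minus strand.

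The promoters of PDRG1 and WDR92 are shown because these were the 2 members whose mRNA was higher in all 10 CB-6644 comparisons. Each run holds 250 bases before and 50 bases after the start that RefSeq gives on GRCh38.p14. The PDRG1 window is chr20:31951997-31952296 and the WDR92 window chr2:68157478-68157777, both read on the minus strand. The 4 motifs GGGCGG (GC box), CCGGAAG (ETS core), CCAAT and CACGTG (E-box) were searched on both strands, and matches are in capitals.
PDRG1: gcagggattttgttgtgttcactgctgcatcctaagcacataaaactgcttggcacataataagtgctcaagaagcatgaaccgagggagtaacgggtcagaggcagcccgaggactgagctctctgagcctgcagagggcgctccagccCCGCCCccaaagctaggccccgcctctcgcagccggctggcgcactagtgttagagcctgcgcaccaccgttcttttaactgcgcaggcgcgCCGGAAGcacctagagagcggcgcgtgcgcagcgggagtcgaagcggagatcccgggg
WDR92: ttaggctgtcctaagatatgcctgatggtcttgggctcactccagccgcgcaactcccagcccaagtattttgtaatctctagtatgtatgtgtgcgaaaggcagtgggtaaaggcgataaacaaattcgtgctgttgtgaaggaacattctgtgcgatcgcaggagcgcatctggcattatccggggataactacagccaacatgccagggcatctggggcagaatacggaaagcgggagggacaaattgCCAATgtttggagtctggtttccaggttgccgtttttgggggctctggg
The PDRG1 window held 1 GC box (as its reverse complement, starting at base 151) and 1 ETS core (starting at base 243), with no overlap between them. The WDR92 window held 1 CCAAT box starting at base 252 and neither of the other matches, so the pair shared no searched motif. Neither held an E-box. Of 35116 RefSeq promoters of the same length, 44.95% held a GC box, 34.6% a CCAAT box, 10.3% an ETS core and 7.26% an E-box. These matches describe letters and were not tested as binding sites.

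The values are TPM, which correct for transcript length and library total, so levels may be compared between genes, but neither depth nor read counts are known. Between 11292 and 14024 genes reached 1 TPM per library. The labelled lines expressed most of the markers looked up, but several markers were low or not particular to their line. EPCAM, KRT8, KRT18 and KRT19 were expressed in every pancreatic library, CDX2, CDH17 and VIL1 in T84, and MYOD1, MYOG and DES in RH30. In A-375, SOX10 had a median of 206 TPM but PMEL only 2.13 TPM, and in H1048, POU2F3 had a median of 382 TPM but TRPM5 only 0.0703 TPM. ASCL2 had a median of 6.14 TPM in H1048 but 26.6 TPM in T84. MITF had 11.6 TPM in A-375 but 23.2 TPM in CFPAC-1. CDH17 and VIL1 were also high in AsPC-1 (medians 836 and 198 TPM), and EPCAM and KRT8 in T84 (medians 1483 and 8760 TPM). The fold changes below are differences of log2(TPM + 1) from limma fits of all libraries of a line and experiment, with p-values adjusted over all genes tested and called below 0.05. In bulk libraries, fewer cells of a type and less RNA per cell cannot be told apart.

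Depletion of the targeted gene was measured first. RUVBL1 mRNA was lower in all 19 sgRUVBL1 libraries than in any sgRosa library of the same experiment, and the 5 group means were 2.23-fold to 3.69-fold below the control mean. In AsPC-1 experiment 2 the sgRUVBL1 libraries held 30.8, 32.2, 32.97 and 33.6 TPM against 94.7, 98.9, 99.9 and 101 TPM (log2 difference -1.58, SE 0.053, adjusted p = 3.22e-11). In AsPC-1 experiment 3 they held 27.4, 29.9, 33.8 and 34.7 TPM against 79.5, 84.04, 86.7 and 86.8 TPM (log2 difference -1.398, SE 0.064, adjusted p = 1.09e-10). Both AsPC-1 experiments thus left RUVBL1 mRNA near the same level, while the sgRosa libraries of experiment 2 lay above those of experiment 3. CFPAC-1 had 37.2, 41.8, 42.7 and 53.7 TPM against 151, 159, 162 and 175 TPM (log2 difference -1.87, SE 0.086, adjusted p = 1.6e-09). T3M-4 had 41.6, 44.2 and 47.3 TPM in 3 libraries against 149.6, 150.3, 156 and 161 TPM (log2 difference -1.78, SE 0.055, adjusted p = 6.05e-13). The smallest depletion was in BxPC-3, with 45.4, 50.05, 51.7 and 52.8 TPM against 99.9, 102, 119 and 126 TPM (log2 difference -1.14, SE 0.074, adjusted p = 1.06e-07). No sgRUVBL1 group overlapped its control, and no more than 0.19% of genes fell further. The TPM counts transcripts with and without an edit alike, so the residual is not the share of intact mRNA.

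RUVBL2 mRNA behaved in the same way in the sgRUVBL2 libraries, with more spread between libraries. AsPC-1 experiment 3 had 31.4, 33.4, 47.8 and 55.5 TPM against 92.03, 96.7, 99.5 and 103 TPM (log2 difference -1.24, SE 0.12, adjusted p = 1.28e-06). In T3M-4 the libraries lay close together at 41.8, 43.9, 46.3 and 50.1 TPM against 154, 156, 158 and 158 TPM (log2 difference -1.76, SE 0.096, adjusted p = 4.93e-10). CFPAC-1, with 2 libraries, had 48.5 and 67.4 TPM against 163, 184, 194 and 199 TPM (log2 difference -1.67, SE 0.11, adjusted p = 5.19e-07). BxPC-3 had 74.5, 80.05 and 128 TPM in 3 libraries against 206, 209, 216 and 256 TPM (log2 difference -1.27, SE 0.13, adjusted p = 0.0001). One BxPC-3 library therefore kept more RUVBL2 mRNA than its fellows, while all 13 sgRUVBL2 libraries lay below every sgRosa library of their experiment.

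**Figure D1:**
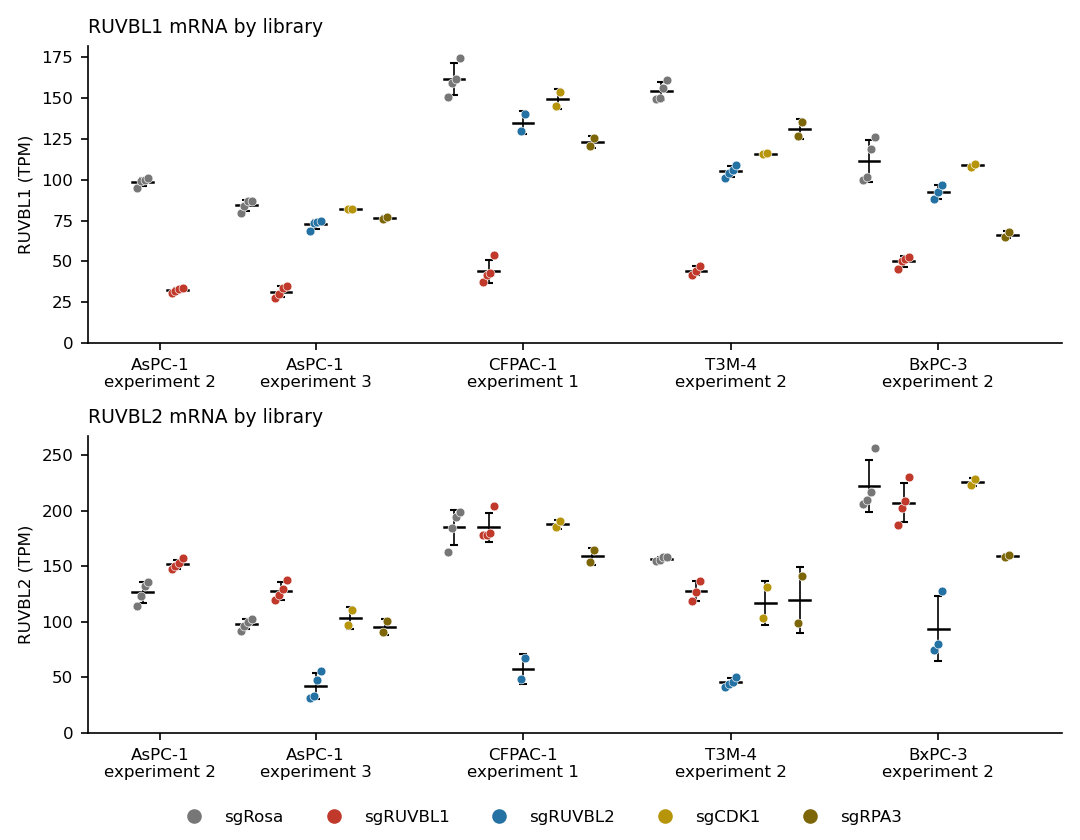
RUVBL1 mRNA (upper panel) and RUVBL2 mRNA (lower panel) in TPM, 1 point per library, by line and experiment, with the mean (long bar) and SD (error bar) of each group. The targeted mRNA falls below every sgRosa library in each group that targets it, and in AsPC-1 RUVBL2 mRNA in the sgRUVBL1 libraries of experiment 3 (119 to 138 TPM) lies above sgRosa (92.03 to 103 TPM). In that comparison 34.1% of all genes also lay wholly above sgRosa.

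The mRNA of the ring partner was then read in the same libraries. RUVBL2 in the sgRUVBL1 libraries rose in AsPC-1, fell in T3M-4 and did not pass the test in the other 2 lines. In AsPC-1 experiment 2 it was 148, 150.3, 153 and 157 TPM against 114, 123, 132 and 136 TPM (log2 difference 0.27, SE 0.072, adjusted p = 0.00526), and in experiment 3 119, 125, 129 and 138 TPM against 92.03, 96.7, 99.5 and 103 TPM (log2 difference 0.38, SE 0.12, adjusted p = 0.0153). The AsPC-1 groups did not overlap in either experiment. Of all genes, 29.0% in experiment 2 and 34.1% in experiment 3 also lay wholly above sgRosa. The shares called higher were 30.0% and 36.6%. Under median-of-ratios scaling, however, the experiment 3 difference was 0.20 and did not pass (adjusted p = 0.178). T3M-4 went the other way, with 119, 127 and 137 TPM against 154, 156, 158 and 158 TPM (log2 difference -0.29, SE 0.1, adjusted p = 0.0212). That T3M-4 call was lost without sgRUVBL1 replicate 1 (adjusted p = 0.053) or without replicate 2 (adjusted p = 0.0947). In BxPC-3 the groups overlapped at 188 to 230.2 TPM and 206 to 256 TPM (log2 difference -0.10, adjusted p = 0.649), and in CFPAC-1 at 178 to 204 TPM and 163 to 199 TPM (log2 difference 0.0011, adjusted p = 0.994). An F test of equal change in the 4 lines gave an adjusted p of 0.00393 for RUVBL2, a test that 73.8% of all genes also passed.

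RUVBL1 in the sgRUVBL2 libraries was lower than every sgRosa library in all 4 lines, by much less than the targeted gene. Of all genes, 9.83% in AsPC-1, 11.4% in T3M-4, 8.81% in BxPC-3 and 23.9% in CFPAC-1 also lay wholly below sgRosa. The RUVBL1 fall was clearest in T3M-4, at 101, 104, 106 and 109 TPM against 149.6, 150.3, 156 and 161 TPM (log2 difference -0.55, SE 0.051, adjusted p = 1.47e-07). In AsPC-1 experiment 3 it was 68.9, 73.6, 74.00 and 74.6 TPM against 79.5, 84.04, 86.7 and 86.8 TPM (log2 difference -0.21, SE 0.064, adjusted p = 0.0141). BxPC-3 had 88.5, 92.5 and 96.97 TPM against 99.9, 102, 119 and 126 TPM (log2 difference -0.26, SE 0.08, adjusted p = 0.0472). This BxPC-3 call rested on single libraries. It was lost without sgRosa replicate 1 (adjusted p = 0.115) or 2 (adjusted p = 0.119) and without sgRUVBL2 replicate 2 (adjusted p = 0.0565) or 3 (adjusted p = 0.122). CFPAC-1 had 129.8 and 140.0 TPM against 151, 159, 162 and 175 TPM and did not pass (log2 difference -0.26, SE 0.11, adjusted p = 0.121). The same F test across lines gave an adjusted p of 0.00786, passed by 58.4% of all genes.

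The proportion of the 2 ring mRNAs followed from these values. The RUVBL1 to RUVBL2 TPM ratio had a median of 0.865 over 52 control libraries (range 0.463 to 1.51) and was above 1 in 13 of them, including all 4 of H1048. After sgRUVBL1 the ratio was between 0.201 and 0.373 in every library. After sgRUVBL2 it was 1.33 to 2.34 in AsPC-1, 2.17 to 2.42 in T3M-4, 2.08 and 2.68 in CFPAC-1 and 0.760 to 1.24 in BxPC-3. The BxPC-3 controls of that experiment were also the lowest, at 0.463 to 0.583. Because the targeted mRNA is one of the 2 terms, these ratios describe the depletion and were not tested.

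PDRG1, the prefoldin-like subunit first described as a p53- and DNA damage-regulated gene, had the largest median change among the 6 partners (0.72 over 9 comparisons, next to -0.33 for PIH1D1). It was higher than every sgRosa library in all 9 sgRUVBL1 and sgRUVBL2 groups and passed the test in 8, of which T3M-4 sgRUVBL1 did not pass under median-of-ratios scaling, given below. In these 9 comparisons 5.16% to 47.8% of all genes also lay wholly above sgRosa, and 2.83% to 45.9% were called higher. In AsPC-1 experiment 2 PDRG1 was 76.96, 78.3, 84.8 and 87.7 TPM after sgRUVBL1 against 24.6, 26.5, 27.3 and 28.6 TPM, a 3.06-fold difference of the means (log2 difference 1.58, SE 0.072, adjusted p = 3.1e-10). In experiment 3 it was 71.97, 74.8, 83.8 and 89.01 TPM after sgRUVBL1 and 60.1, 60.2, 66.1 and 72.6 TPM after sgRUVBL2, against 24.3, 26.9, 27.3 and 27.6 TPM. The log2 differences were 1.55 (SE 0.091, adjusted p = 8.03e-10) and 1.25 (SE 0.091, adjusted p = 3.33e-08). Only 0.61%, 0.458% and 0.515% of all genes tested had a larger rise in these 3 AsPC-1 comparisons.

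The other lines showed the same direction for PDRG1 with smaller changes. CFPAC-1 had 75.1, 79.3, 82.2 and 101 TPM after sgRUVBL1 (log2 difference 0.92, SE 0.096, adjusted p = 3.02e-05) and 63.3 and 70.3 TPM after sgRUVBL2 (log2 difference 0.59, SE 0.12, adjusted p = 0.00606), against 39.9, 42.8, 43.9 and 49.3 TPM. The CFPAC-1 sgRUVBL2 call rested on 2 libraries and was lost without either (adjusted p = 0.0575 and 0.0689). BxPC-3 sgRUVBL1 libraries were uneven, at 47.9, 55.9, 80.7 and 85.3 TPM against 36.99, 39.6, 40.8 and 40.8 TPM (log2 difference 0.72, SE 0.15, adjusted p = 0.00309). BxPC-3 sgRUVBL2 libraries held 48.9, 50.1 and 65.5 TPM, above the control but short of the threshold (log2 difference 0.45, SE 0.16, adjusted p = 0.0748), which was passed without sgRUVBL2 replicate 2 (adjusted p = 0.048). In T3M-4, whose control level was already 55.1 to 61.9 TPM, sgRUVBL1 gave 77.5, 78.4 and 87.5 TPM (log2 difference 0.48, SE 0.065, adjusted p = 1.04e-05) and sgRUVBL2 79.4, 80.8, 83.3 and 85.8 TPM (log2 difference 0.50, SE 0.06, adjusted p = 2.88e-06). Here 31.6% and 22% of all genes rose further, so PDRG1 was not near the top in T3M-4. Under median-of-ratios scaling, which sets the median gene of each library level, the T3M-4 differences were smaller and the sgRUVBL1 call was lost (0.19, adjusted p = 0.0663 for sgRUVBL1; 0.28, adjusted p = 0.00508 for sgRUVBL2), while BxPC-3 sgRUVBL2 passed (0.52, adjusted p = 0.0289). Treated levels spread less across lines than control levels. After sgRUVBL1 the group means lay between 67.4 and 84.4 TPM, and the sgRosa means between 26.5 and 58.01 TPM. The change differed between lines by the F test (adjusted p = 3.99e-07 for sgRUVBL1 and 4.6e-05 for sgRUVBL2).

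**Figure D2:**
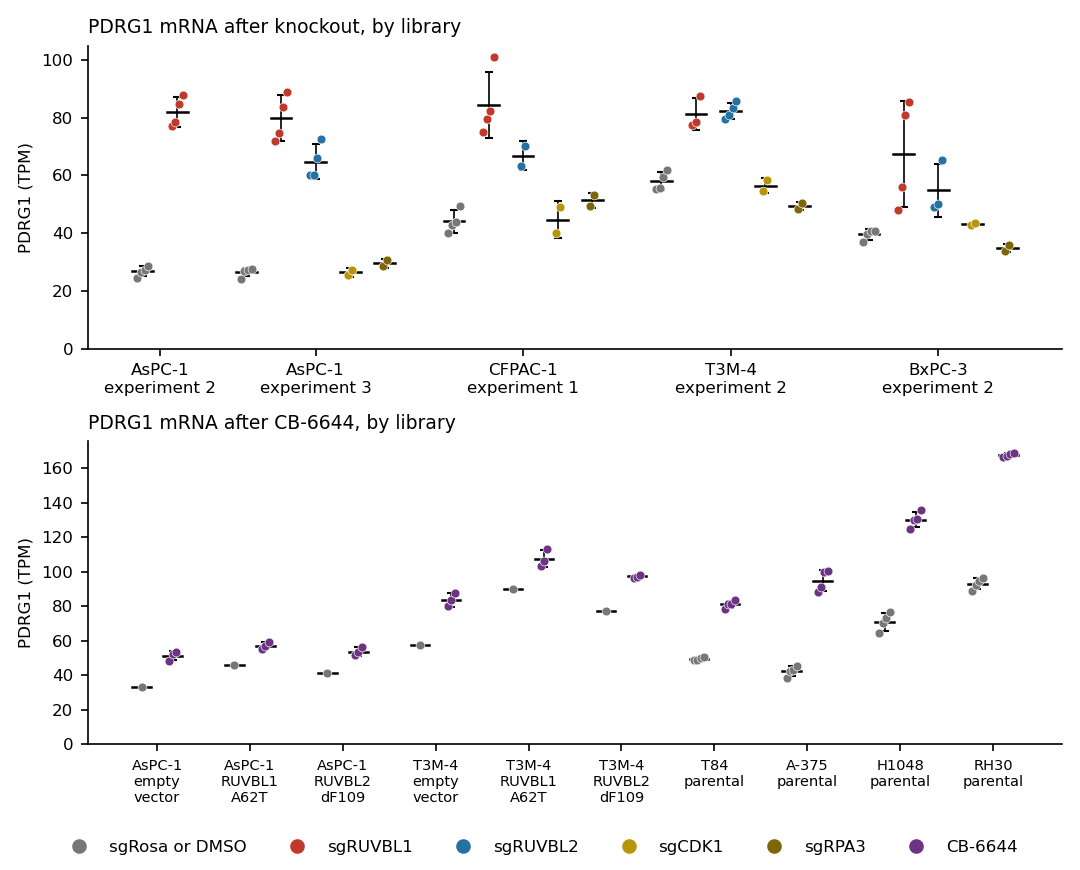
PDRG1 mRNA in TPM, 1 point per library, after knockout (upper panel) and after CB-6644 (lower panel), with the mean (long bar) and SD (error bar) of each group. Every sgRUVBL1, sgRUVBL2 and CB-6644 library lies above the sgRosa or DMSO libraries of its own group. Of all genes, 5.16% to 47.8% also lay wholly above sgRosa and 42.2% to 75.6% wholly above DMSO. The AsPC-1 sgCDK1 and sgRPA3 libraries stay between 25.4 and 30.7 TPM, where 16.7% and 0.654% of all genes were called. In T3M-4 experiment 2, PDRG1 was lower with sgRPA3 than with sgRosa (log2 difference -0.23).

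Of the 2 other R2TP subunits, PIH1D1 fell in most groups and RPAP3 passed the test in AsPC-1 experiment 3 alone (F test across lines, adjusted p = 0.00513 for sgRUVBL1 and 0.0168 for sgRUVBL2). PIH1D1 was below its control mean in all 9 comparisons and passed the test in 7, while between 5.48% and 37.3% of all genes were called lower in these comparisons. T3M-4 had the largest PIH1D1 fall, to 56.1, 61.1 and 61.4 TPM after sgRUVBL1 (log2 difference -0.56, SE 0.082, adjusted p = 2.12e-05) and 55.7, 61.1, 62.4 and 64.6 TPM after sgRUVBL2 (log2 difference -0.52, SE 0.076, adjusted p = 1.91e-05), from 82.1, 83.8, 89.1 and 97.5 TPM. AsPC-1 experiment 2 went from 61.98, 62.97, 64.4 and 71.8 to 51.6, 52.1, 53.2 and 55.04 TPM (log2 difference -0.29, SE 0.062, adjusted p = 0.000868). In AsPC-1 experiment 3, sgRUVBL2 gave 40.5, 41.3, 41.4 and 47.8 TPM against 52.3, 58.8, 59.1 and 59.8 TPM (log2 difference -0.42, SE 0.074, adjusted p = 0.00021), whereas sgRUVBL1 overlapped the control at 49.2 to 56.6 TPM (log2 difference -0.12, adjusted p = 0.181). BxPC-3 fell after sgRUVBL1 (log2 difference -0.33, adjusted p = 0.0137) and CFPAC-1 after both sgRNAs (log2 difference -0.22, adjusted p = 0.0366; log2 difference -0.36, adjusted p = 0.0262). Beside the median of all genes in CFPAC-1 sgRUVBL1, which was itself -0.20, the PIH1D1 difference there was only -0.022. Under median-of-ratios scaling neither CFPAC-1 call was left (-0.0022, adjusted p = 0.99; -0.26, adjusted p = 0.16), while AsPC-1 experiment 3 sgRUVBL1 passed (-0.30, adjusted p = 0.00506). The CFPAC-1 sgRUVBL1 call was lost without sgRUVBL1 replicate 1 or 2 or sgRosa replicate 2 or 3 (adjusted p = 0.055 to 0.106) and the sgRUVBL2 call without sgRUVBL2 replicate 1 or 2 or sgRosa replicate 2 or 3 (adjusted p = 0.0512 to 0.345). The BxPC-3 call was lost without sgRUVBL1 replicate 2 or sgRosa replicate 2 (adjusted p = 0.0529 and 0.0581). RPAP3 rose in AsPC-1 experiment 3, to 35.9, 37.2, 38.8 and 44.5 TPM after sgRUVBL1 (log2 difference 0.60, SE 0.11, adjusted p = 0.000276) and 29.2, 30.9, 36.9 and 41.8 TPM after sgRUVBL2 (log2 difference 0.42, SE 0.11, adjusted p = 0.00606), from 22.3, 23.3, 26.2 and 30.5 TPM, and the sgRUVBL2 group overlapped the control and did not pass under median-of-ratios scaling (0.26, adjusted p = 0.105). In AsPC-1 experiment 2 RPAP3 lay at 35.5 to 38.7 TPM against 34.3 to 42.3 TPM (log2 difference 0.016, adjusted p = 0.867), so the rise was not seen in both AsPC-1 experiments. The remaining 6 RPAP3 differences lay between -0.10 and 0.35 and none passed.

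URI1, UXT and WDR92 moved little or in different directions. URI1 passed once in 9 comparisons, with a fall in AsPC-1 experiment 2 to 51.6, 52.1, 54.04 and 55.4 TPM from 57.1, 58.99, 61.8 and 65.6 TPM (log2 difference -0.19, SE 0.058, adjusted p = 0.0116), and the other 8 differences ran from -0.26 to 0.082. UXT fell in T3M-4, to 101, 121 and 130.3 TPM after sgRUVBL1 (log2 difference -0.32, SE 0.086, adjusted p = 0.00434) and 114, 120.4, 126 and 130.4 TPM after sgRUVBL2 (log2 difference -0.25, SE 0.08, adjusted p = 0.0134), from 134, 143, 143 and 167 TPM. It rose in CFPAC-1, to 172, 183, 200.2 and 217 TPM (log2 difference 0.31, SE 0.079, adjusted p = 0.0051) and 190.1 and 203 TPM (log2 difference 0.34, SE 0.096, adjusted p = 0.0301), from 139, 159.6, 159.8 and 163 TPM. UXT thus moved in opposite directions in T3M-4 and CFPAC-1, and the F test across lines passed for sgRUVBL1 (adjusted p = 2.5e-05) and sgRUVBL2 (adjusted p = 0.000534). In AsPC-1 experiment 3 UXT was also lower after sgRUVBL1, with overlap, at 116, 119, 125 and 155 TPM against 146, 149, 162 and 166 TPM (log2 difference -0.28, SE 0.096, adjusted p = 0.0203). WDR92, the lowest-expressed member, fell in CFPAC-1 after sgRUVBL1 to 7.38, 8.001, 8.02 and 8.11 TPM from 10.4, 10.98, 11.1 and 12.3 TPM (log2 difference -0.46, SE 0.11, adjusted p = 0.00277). The AsPC-1 experiments disagreed on WDR92, with 14.6, 14.9, 16.3 and 17.7 TPM against 16.7, 17.8, 19.1 and 20.6 TPM in experiment 2 (log2 difference -0.21, SE 0.087, adjusted p = 0.0485). In experiment 3 it was 14.6, 18.5, 21.2 and 22.1 TPM against 13.1, 13.98, 14.4 and 16.4 TPM (log2 difference 0.36, SE 0.11, adjusted p = 0.00813), and in both experiments the groups overlapped. Of these calls, WDR92 did not pass under median-of-ratios scaling in CFPAC-1 (-0.26, adjusted p = 0.0646) or AsPC-1 experiment 3 (0.19, adjusted p = 0.0861), and in AsPC-1 experiment 2 it was lost without sgRUVBL1 replicate 1, 3 or 4 or sgRosa replicate 2, 3 or 4 (adjusted p = 0.0554 to 0.14). UXT lost its call in AsPC-1 experiment 3 without sgRUVBL1 replicate 1 or 2 or sgRosa replicate 3 or 4 (adjusted p = 0.051 to 0.0752) and in CFPAC-1 after sgRUVBL2 without sgRUVBL2 replicate 1 or 2 or sgRosa replicate 2 (adjusted p = 0.0618 to 0.196).

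**Figure D3:**
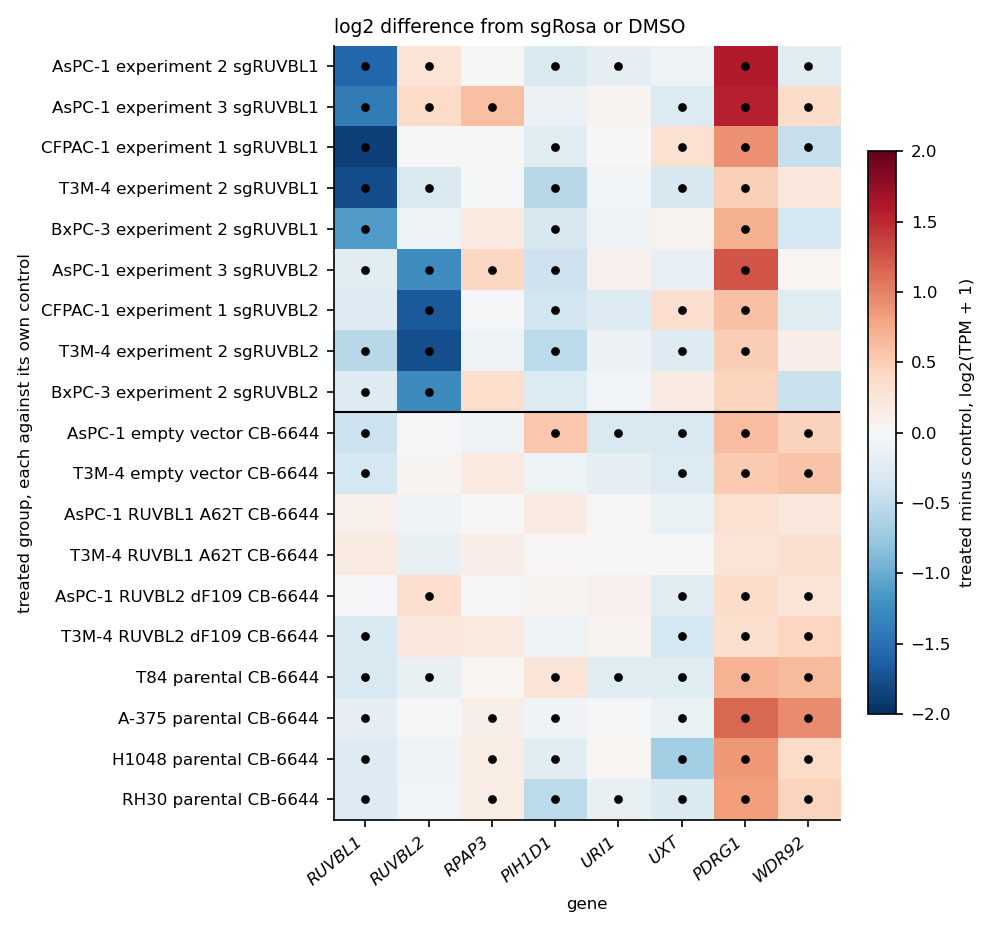
Difference of log2(TPM + 1) between each treated group and its own sgRosa or DMSO group (rows) for the 8 genes (columns), with a dot where the adjusted p is below 0.05. PDRG1 is above 0 in all 19 rows, PIH1D1 below 0 in all 9 knockout rows, and WDR92 above 0 and UXT below 0 in all 10 CB-6644 rows; under median-of-ratios scaling PDRG1 in T3M-4 and WDR92 in AsPC-1, both with RUVBL2 dF109, are below 0.

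The members called are to be read beside the share of all genes called. After sgRUVBL1, 6 of 8 members passed in AsPC-1 experiment 2 beside 55.8% of all genes, 6 of 8 in AsPC-1 experiment 3 beside 51.9%, 5 of 8 in CFPAC-1 beside 43.8%, 5 of 8 in T3M-4 beside 60.5% and 3 of 8 in BxPC-3 beside 16.0%. After sgRUVBL2, 5 of 8 passed in AsPC-1 beside 43.2%, 4 of 8 in CFPAC-1 beside 12.1%, 5 of 8 in T3M-4 beside 54.5% and 2 of 8 in BxPC-3 beside 9.76%. Each count includes the targeted gene. Groups that do not overlap were also common, since 5.16% to 47.8% of all genes lay wholly above their controls and 8.81% to 26.1% wholly below them in these 9 comparisons.

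Whether the 2 ATPase knockouts differed from each other was tested directly in the 4 experiments that held both. Apart from the 2 targeted genes, 1 member difference passed. In AsPC-1, PIH1D1 was higher after sgRUVBL1 than after sgRUVBL2 by 0.30 (SE 0.074, adjusted p = 0.0303), and 3 of 8 members passed beside 3.71% of all genes. That PIH1D1 difference fell short of the threshold under median-of-ratios scaling (0.29, adjusted p = 0.0511). In BxPC-3, CFPAC-1 and T3M-4 only RUVBL1 and RUVBL2 passed, beside 0.0323%, 0.0235% and 0.0226% of all genes. PDRG1 was higher after sgRUVBL1 than after sgRUVBL2 by 0.30 (SE 0.091, adjusted p = 0.0747) in AsPC-1, 0.33 (SE 0.12, adjusted p = 0.262) in CFPAC-1 and 0.27 (SE 0.16, adjusted p = 0.43) in BxPC-3, none of which passed. In T3M-4 that PDRG1 difference was -0.022 (SE 0.065, adjusted p = 0.89). The near absence of calls does not show that the 2 knockouts act alike.

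Each ATPase knockout was further compared with the mean of the sgCDK1 and sgRPA3 libraries, in which a gene that dividing cells need was targeted. Loss of CDK1 or RPA3 itself is not reported here. Against sgRosa, sgCDK1 and sgRPA3 changed 16.7% and 0.654% of all genes in AsPC-1 and 0.00% and 11.6% in CFPAC-1. Where few genes changed, this comparison largely repeats that with sgRosa and cannot show what loss of a needed gene does. PDRG1 remained higher and passed in all 8 of these comparisons. The differences were 1.48 (SE 0.091, adjusted p = 1.22e-09) for sgRUVBL1 and 1.18 (SE 0.091, adjusted p = 6.78e-08) for sgRUVBL2 in AsPC-1, where 51.2% and 42.1% of all genes passed. They were 0.80 (SE 0.096, adjusted p = 9.73e-06) and 0.47 (SE 0.12, adjusted p = 0.00832) in CFPAC-1, beside 55.4% and 23.8%. In T3M-4 they were 0.61 (SE 0.065, adjusted p = 1.93e-06) and 0.63 (SE 0.06, adjusted p = 6.33e-07), beside 41.8% and 38.2%, and in BxPC-3 0.74 (SE 0.15, adjusted p = 0.00166) and 0.47 (SE 0.16, adjusted p = 0.0399), beside 20.4% and 20.7%. RPAP3 was higher than in the sgCDK1 and sgRPA3 libraries in 5 of 8 comparisons, up to 0.69 (SE 0.11, adjusted p = 6.31e-05) in AsPC-1 sgRUVBL1. PIH1D1 was lower in 5 of 8, down to -0.41 (SE 0.082, adjusted p = 0.000728) in T3M-4 sgRUVBL1. RUVBL2 in sgRUVBL1 libraries passed only in AsPC-1, at 0.36 (SE 0.12, adjusted p = 0.022), and in T3M-4 it was 0.12 (SE 0.1, adjusted p = 0.375), where the sgCDK1 and sgRPA3 libraries were themselves below sgRosa. RUVBL1 in sgRUVBL2 libraries passed only in T3M-4, at -0.23 (SE 0.051, adjusted p = 0.00199). The RUVBL2 call in AsPC-1 was lost under median-of-ratios scaling (0.23, adjusted p = 0.117), and PDRG1 in BxPC-3 sgRUVBL2 was lost without a filter on low values (adjusted p = 0.0694).

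CB-6644 binds the RUVBL1 and RUVBL2 proteins, and of their mRNAs RUVBL1 was called lower in 7 of 10 comparisons and RUVBL2 lower in 1 and higher in 1. In those comparisons 0.00816% to 29.7% of all genes were called lower, and 12.03% to 31.7% lay wholly below DMSO. RUVBL1 was lower than in any DMSO library in all 4 lines without a vector and in both empty-vector groups. T84 had 102, 102, 104 and 107 TPM against 126, 129, 129 and 132 TPM (log2 difference -0.31, SE 0.039, adjusted p = 3.28e-06), and A-375 193, 198, 199 and 204 TPM against 218, 224, 233 and 238 TPM (log2 difference -0.20, SE 0.031, adjusted p = 0.000103). H1048 had 123, 124, 124 and 135 TPM against 147, 149, 154 and 155 TPM (log2 difference -0.26, SE 0.035, adjusted p = 2.59e-05), and RH30 143, 144, 147 and 149.6 TPM against 171, 173, 177 and 178 TPM (log2 difference -0.26, SE 0.025, adjusted p = 1.09e-06). With empty vector, AsPC-1 had 71.4, 74.5 and 75.2 TPM against 99.9 TPM in the lone DMSO library (log2 difference -0.43, SE 0.052, adjusted p = 0.000108), and T3M-4 109.6, 110.1 and 114 TPM against 142 TPM (log2 difference -0.35, SE 0.066, adjusted p = 0.00393). The 6 falls ran from -0.43 to -0.20, and across the 4 lines without a vector the F test did not pass for RUVBL1 (adjusted p = 0.0989, against 86.2% of all genes passing). In the vector experiments a lone DMSO library is assumed to vary like the CB-6644 libraries.

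RUVBL2 passed in 2 of 10 CB-6644 comparisons, one of them in dF109 libraries where RUVBL2 was expressed from a vector. It fell in T84, where 128, 131, 132 and 136 TPM overlapped 136, 145, 151 and 155 TPM in DMSO (log2 difference -0.16, SE 0.046, adjusted p = 0.00657). In A-375 (254 to 266 against 247 to 276 TPM; log2 difference -0.02, adjusted p = 0.618), H1048 (96.2 to 106 against 97.7 to 113 TPM; log2 difference -0.067, adjusted p = 0.198) and RH30 (147 to 164 against 153 to 176 TPM; log2 difference -0.061, adjusted p = 0.25) the groups overlapped. With empty vector it was 117, 119.5 and 125 TPM against 123 TPM in AsPC-1 (log2 difference -0.036, adjusted p = 0.701) and 119, 140.1 and 148 TPM against 130.4 TPM in T3M-4 (log2 difference 0.05, adjusted p = 0.757). The median difference of all genes after CB-6644 was above 0, between 0.098 and 0.32, so values near 0 lay below the typical gene. Under median-of-ratios scaling RUVBL2 was called lower in A-375 (-0.24, adjusted p = 0.000152), H1048 (-0.28, adjusted p = 0.000153) and RH30 (-0.23, adjusted p = 0.000703) as well.

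PDRG1 and WDR92 rose after CB-6644, each with every CB-6644 library above DMSO in 10 of 10 groups and a call in 8 of 10. Between 42.2% and 75.6% of all genes also lay wholly above DMSO in these comparisons, and 0.0326% to 53.9% were called higher. The largest PDRG1 rise was in A-375, from 38.2, 42.2, 43.2 and 45.2 to 88.5, 91.1, 99.6 and 100.4 TPM, 2.25-fold (log2 difference 1.15, SE 0.056, adjusted p = 5.56e-09). H1048 went from 64.4, 70.1, 73.1 and 76.6 to 125, 129.8, 130.4 and 136 TPM (log2 difference 0.87, SE 0.049, adjusted p = 1.27e-08) and RH30 from 89.1, 92.3, 94.8 and 96.5 to 167, 167, 169 and 169 TPM (log2 difference 0.84, SE 0.028, adjusted p = 8.63e-11). In T84 it went from 48.5, 48.7, 49.9 and 50.6 to 78.2, 81.03, 81.4 and 83.3 TPM (log2 difference 0.70, SE 0.043, adjusted p = 1.55e-09). PDRG1 therefore rose in a colorectal, a melanoma, a lung and a sarcoma line, with between 5.59% and 10.4% of all genes rising further. With empty vector the 3 CB-6644 libraries held 48.3, 52.03 and 53.3 TPM against 33.1 TPM in AsPC-1 (log2 difference 0.61, SE 0.074, adjusted p = 0.000108) and 79.9, 83.5 and 87.6 TPM against 57.6 TPM in T3M-4 (log2 difference 0.53, SE 0.074, adjusted p = 0.000876). The T3M-4 call was lost under median-of-ratios scaling (adjusted p = 0.0831), with the groups compared fitted alone (adjusted p = 0.0915) and with the 3 DMSO libraries as a single control (adjusted p = 0.3).

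WDR92 rose most in A-375, from 10.6, 11.1, 11.6 and 12.3 to 21.5, 22.6, 22.8 and 24.9 TPM, 2.02-fold (log2 difference 0.95, SE 0.057, adjusted p = 2.97e-08). In T84 it went from 13.7, 14.1, 14.3 and 15.6 to 22.6, 22.7, 22.9 and 23.1 TPM (log2 difference 0.63, SE 0.06, adjusted p = 1.55e-07). RH30 went from 21.1, 21.3, 21.4 and 22.3 to 28.8, 29.02, 29.5 and 30.9 TPM (log2 difference 0.44, SE 0.038, adjusted p = 3.18e-07), and H1048 from 17.3, 17.4, 18.9 and 20.7 to 22.9, 24.2, 24.3 and 26.8 TPM (log2 difference 0.39, SE 0.065, adjusted p = 0.000145). The empty-vector differences were 0.46 in AsPC-1 (adjusted p = 0.00229) and 0.57 in T3M-4 (adjusted p = 0.0164). Relative to the median of all genes the 6 WDR92 rises were 0.21 to 0.80. The knockouts had not moved WDR92 in 1 direction, as given above.

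UXT, by contrast, fell after CB-6644 and passed in 8 of 10 comparisons, while 0.00816% to 29.7% of all genes were called lower. H1048 stood out, with 100.5, 109, 114 and 121 TPM against 174, 176, 179 and 181 TPM (log2 difference -0.67, SE 0.048, adjusted p = 8.62e-08). T84 had 249.8, 264, 276 and 291 TPM against 302, 318, 325 and 329.8 TPM (log2 difference -0.24, SE 0.047, adjusted p = 0.000269), RH30 182, 195, 199 and 222 against 238, 238, 244 and 249.5 TPM (log2 difference -0.28, SE 0.048, adjusted p = 0.000142) and A-375 193, 199, 202 and 206 against 208, 217, 218 and 231 TPM (log2 difference -0.13, SE 0.033, adjusted p = 0.00353). The falls in T84, RH30 and A-375 were all smaller than that in H1048. With empty vector the differences were -0.30 in AsPC-1 (adjusted p = 0.0113) and -0.28 in T3M-4 (adjusted p = 0.0269).

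PIH1D1 divided the lines. It rose in AsPC-1 with empty vector, to 74.3, 74.3 and 75.2 TPM from 51.1 TPM (log2 difference 0.54, SE 0.065, adjusted p = 0.000116), and in T84, to 68.3, 72.4, 74.6 and 78.3 TPM from 58.98, 59.3, 62.1 and 64.1 TPM (log2 difference 0.26, SE 0.051, adjusted p = 0.000272). It fell in RH30, to 72.3, 72.6, 80.97 and 81.3 TPM from 97.95, 107, 117 and 123 TPM (log2 difference -0.53, SE 0.065, adjusted p = 8.7e-06), and in H1048, to 132, 132, 138 and 139.9 TPM from 151, 154, 159.6 and 160.4 TPM (log2 difference -0.21, SE 0.032, adjusted p = 7.59e-05). In A-375 the fall of -0.066 passed with overlapping groups (adjusted p = 0.0445), and in T3M-4 with empty vector -0.11 did not (adjusted p = 0.345). The A-375 call was lost without CB-6644 replicate 1, 2 or 3 or DMSO replicate 1, 2 or 3 (adjusted p = 0.0749 to 0.112), and the T84 rise did not pass under median-of-ratios scaling (0.073, adjusted p = 0.259). So in AsPC-1 PIH1D1 was lower after sgRUVBL1 in experiment 2 and sgRUVBL2 in experiment 3 and higher after the inhibitor, at different times and with different controls. URI1 fell in T84 (log2 difference -0.24, adjusted p = 0.00112), RH30 (log2 difference -0.15, adjusted p = 0.00118) and AsPC-1 with empty vector (log2 difference -0.30, adjusted p = 0.00204), and did not pass elsewhere. RPAP3 was called higher in A-375 (log2 difference 0.12, adjusted p = 0.00409), H1048 (log2 difference 0.15, adjusted p = 0.00583) and RH30 (log2 difference 0.15, adjusted p = 0.00466). Those RPAP3 rises lay close to the shift of the median gene, being -0.032, -0.024 and 0.019 relative to it, and all 3 changed sign under median-of-ratios scaling. Per line, the members called were 6 of 8 in A-375 beside 81.1% of all genes, 6 of 8 in H1048 beside 77.9%, 7 of 8 in RH30 beside 77.7%, 7 of 8 in T84 beside 71.4%, 6 of 8 in AsPC-1 with empty vector beside 49.0% and 4 of 8 in T3M-4 with empty vector beside 36.2%.

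The inhibitor-resistant forms entered the libraries as mRNA of the same genes, which TPM does not separate from the endogenous transcript. RUVBL1 in the RUVBL1 A62T libraries was 2665 TPM in DMSO and 2766, 2824 and 2964 TPM in CB-6644 in AsPC-1. In T3M-4 it was 1785 TPM and 1971, 1973 and 2151 TPM. RUVBL2 in the RUVBL2 dF109 libraries was 1607 TPM and 1889, 2004 and 2178 TPM in AsPC-1, and 1055 TPM and 1166, 1248 and 1256 TPM in T3M-4. Both transgenes therefore gave far more of their mRNA than the endogenous gene, and the labels of these libraries matched their contents. The mRNA of the other ATPase was also measured in these libraries. RUVBL2 in RUVBL1 A62T libraries was -0.10 (SE 0.05, adjusted p = 0.101) against empty vector in AsPC-1 and -0.12 (SE 0.078, adjusted p = 0.221) in T3M-4, both among CB-6644 libraries. RUVBL1 in RUVBL2 dF109 libraries was higher than with empty vector by 0.27 (SE 0.037, adjusted p = 0.00016) in AsPC-1, and in T3M-4 by 0.11 (SE 0.047, adjusted p = 0.0796), which did not pass.

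With RUVBL1 A62T, CB-6644 called no member in either line, beside 0.0408% of all genes in AsPC-1 and 1.22% in T3M-4. The PDRG1 differences were still above 0, at 0.30 (SE 0.074, adjusted p = 0.14) in AsPC-1 and 0.25 (SE 0.074, adjusted p = 0.108) in T3M-4. RUVBL1, mostly transgene, was 0.10 (adjusted p = 0.352) and 0.19 (adjusted p = 0.165). RUVBL2 was -0.085 (adjusted p = 0.51) in AsPC-1 and -0.14 (adjusted p = 0.481) in T3M-4.

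With RUVBL2 dF109, 4 of 8 members passed in AsPC-1 beside 43.8% of all genes and 4 of 8 in T3M-4 beside 39.3%. These were PDRG1 (0.37, adjusted p = 0.00674; 0.32, adjusted p = 0.0097), WDR92 (0.26, adjusted p = 0.0434; 0.43, adjusted p = 0.046) and UXT (-0.23, adjusted p = 0.0404; -0.35, adjusted p = 0.0112), in AsPC-1 and T3M-4 in that order. The fourth was RUVBL2 in AsPC-1 (log2 difference 0.33, adjusted p = 0.00802), which is mostly transgene, and RUVBL1 in T3M-4 (log2 difference -0.30, adjusted p = 0.00836). RUVBL1 in AsPC-1 (log2 difference -0.024, adjusted p = 0.726) and RUVBL2 in T3M-4 (log2 difference 0.21, adjusted p = 0.152) did not pass. Against the shift of the median gene (0.23 and 0.32), the PDRG1 rise was 0.14 in AsPC-1 and 0.0069 in T3M-4. Under median-of-ratios scaling it was 0.062 in AsPC-1 (adjusted p = 0.541) and reversed to -0.073 in T3M-4 (adjusted p = 0.66), so these 2 PDRG1 rises depended on the scaling. WDR92 did too, at -0.031, adjusted p = 0.779 in AsPC-1 and 0.062, adjusted p = 0.721 in T3M-4, and its calls were lost without any 1 of the 3 CB-6644 libraries (adjusted p = 0.0528 to 0.0917 in AsPC-1, adjusted p = 0.0692 to 0.106 in T3M-4). In AsPC-1 the RUVBL2 call was also lost under that scaling (0.018, adjusted p = 0.891), whereas RUVBL1 was then called lower (-0.33, adjusted p = 0.0128).

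The difference between the CB-6644 response with and without a resistant form was tested as an interaction. In AsPC-1, PIH1D1 rose less than with empty vector, with interactions of -0.37 (SE 0.092, adjusted p = 0.0207) for RUVBL1 A62T and -0.48 (SE 0.092, adjusted p = 0.00655) for RUVBL2 dF109. URI1 fell less, with 0.33 (SE 0.083, adjusted p = 0.0219) and 0.39 (SE 0.083, adjusted p = 0.00986). RUVBL1 also fell less with RUVBL2 dF109, where RUVBL1 is endogenous, by 0.41 (SE 0.074, adjusted p = 0.00483). Together with RUVBL1 in RUVBL1 A62T (0.53, adjusted p = 0.0015) and RUVBL2 in RUVBL2 dF109 (0.37, adjusted p = 0.028), 3 and 4 of 8 interactions passed in AsPC-1, beside 18.9% and 22.1% of all genes. In T3M-4 the only member to pass was RUVBL1 with RUVBL1 A62T (0.54, adjusted p = 0.0253), beside 3.42% of all genes, and none passed with RUVBL2 dF109, beside 1.4%. The PDRG1 interactions were below 0 in all 4 tests and none passed, at -0.31 (adjusted p = 0.0635) and -0.25 (adjusted p = 0.114) in AsPC-1 and -0.28 (adjusted p = 0.201) and -0.21 (adjusted p = 0.333) in T3M-4. Under median-of-ratios scaling the interactions of PIH1D1 (-0.35, adjusted p = 0.0299; -0.63, adjusted p = 0.00233) and of RUVBL1 with RUVBL1 A62T (0.55, adjusted p = 0.00604) in AsPC-1 still passed, and PDRG1 with RUVBL2 dF109 in AsPC-1 then passed (-0.40, adjusted p = 0.0261). Those of URI1 (0.35, adjusted p = 0.0957; 0.24, adjusted p = 0.229), of RUVBL1 (0.26, adjusted p = 0.119) and RUVBL2 (0.21, adjusted p = 0.265) with RUVBL2 dF109 in AsPC-1 and of RUVBL1 in T3M-4 (0.62, adjusted p = 0.0641) did not.

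The DMSO libraries of the resistant forms held more PDRG1 mRNA than that of the empty vector. PDRG1 in the lone DMSO library was 46.1 TPM with RUVBL1 A62T and 41.4 TPM with RUVBL2 dF109 in AsPC-1, against 33.1 TPM with empty vector. In T3M-4 the values were 90.02, 77.5 and 57.6 TPM. With 1 library each these differences have no replicate check. Among the CB-6644 libraries, where there are 3, PDRG1 was above empty vector with RUVBL1 A62T in AsPC-1 by 0.16 (SE 0.052, adjusted p = 0.0256) and in T3M-4 by 0.36 (SE 0.052, adjusted p = 0.000428). With RUVBL2 dF109 it was above by 0.22 (SE 0.052, adjusted p = 0.00877) in T3M-4 and 0.068 (SE 0.052, adjusted p = 0.296) in AsPC-1. Under median-of-ratios scaling neither T3M-4 difference passed, and that with RUVBL2 dF109 changed sign (0.072, adjusted p = 0.467 with RUVBL1 A62T; -0.034, adjusted p = 0.765 with RUVBL2 dF109). The AsPC-1 call with RUVBL1 A62T was lost without RUVBL1 A62T CB-6644 replicate 1 or 3 or empty vector CB-6644 replicate 1 (adjusted p = 0.0603 to 0.101). PIH1D1 was below empty vector in all 4, between -0.49 (adjusted p = 1.46e-05) and -0.26 (adjusted p = 0.00505). In AsPC-1, 6 of 8 members passed with RUVBL1 A62T beside 58.8% of all genes and 5 of 8 with RUVBL2 dF109 beside 54.2%. In T3M-4, 3 of 8 passed with RUVBL1 A62T beside 61.1% and 4 of 8 with RUVBL2 dF109 beside 51.8%.

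**Figure D4:**
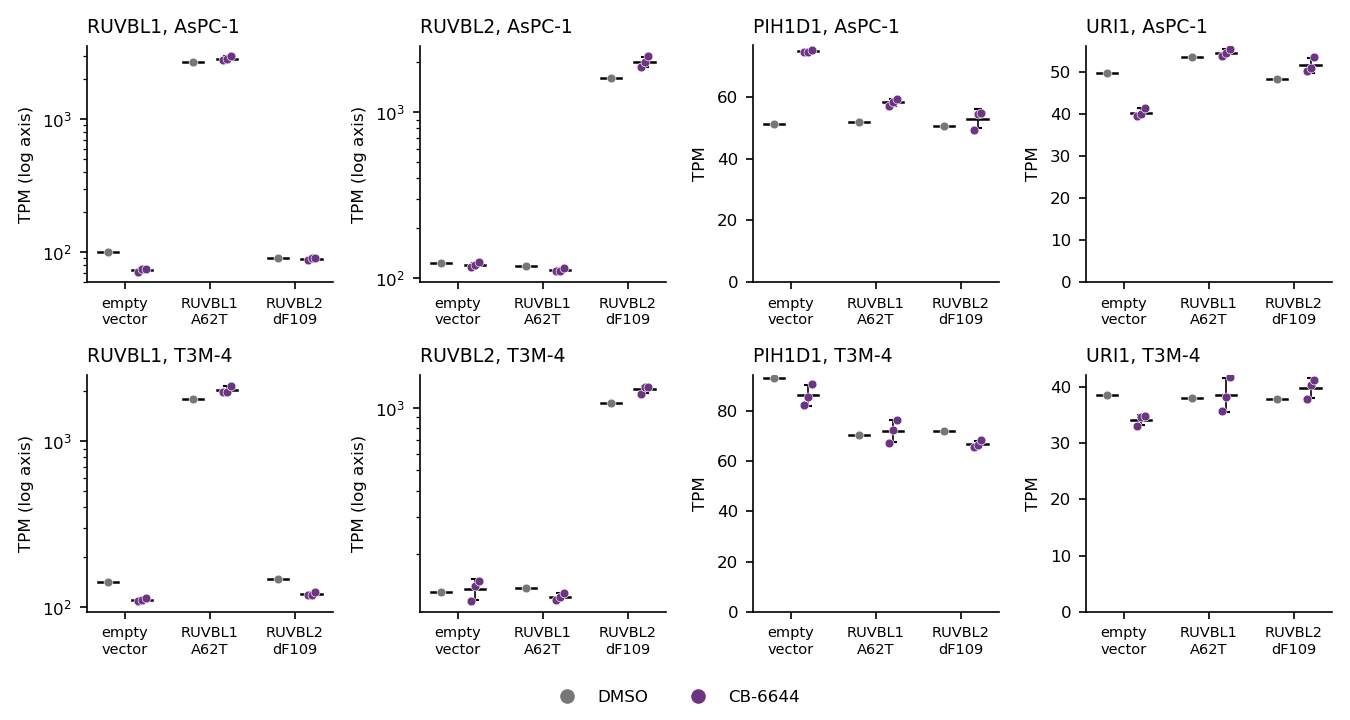
TPM of RUVBL1, RUVBL2, PIH1D1 and URI1 in AsPC-1 (upper row) and T3M-4 (lower row) carrying the empty vector or one of the resistant forms (RUVBL1 A62T, RUVBL2 dF109), 1 point per library in DMSO or CB-6644, with the mean and SD; the RUVBL1 and RUVBL2 axes are logarithmic. In AsPC-1 the empty-vector CB-6644 libraries stand apart for PIH1D1 (74.3 to 75.2 TPM) and URI1 (39.6 to 41.6 TPM), and the 2 variants stay nearer to DMSO.

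The size of the change differed between lines for most members. Of 24 F tests of equal change (8 genes, with sgRUVBL1 and sgRUVBL2 over 4 lines and CB-6644 over the 4 lines without a vector), 19 passed. For CB-6644 the smallest adjusted p was that of PIH1D1 (6.79e-10), whose lines moved in opposite directions, followed by WDR92 (3.1e-07) and UXT (3.21e-07). RUVBL1, RUVBL2 and RPAP3 did not pass for CB-6644, URI1 did not for sgRUVBL1 (adjusted p = 0.503) and PIH1D1 did not for sgRUVBL2 (adjusted p = 0.208). Under median-of-ratios scaling these last 2 passed (adjusted p = 0.00206 for URI1 and 0.0114 for PIH1D1), while URI1 and WDR92 no longer did for sgRUVBL2 (adjusted p = 0.16 and 0.183). The shares of all genes that passed were 73.8%, 58.4% and 86.2%, so a difference between lines was not particular to these genes.

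The 20 comparisons of other knockouts were the background against which these changes stood. Of 160 member tests, 20 passed, while between 0% and 50% of all genes (median 16.2%) were called per comparison. RUVBL1 was called most often, in 8 of 20. It rose in AsPC-1 with sgCHD4, to 103, 111, 114 and 116 TPM from 67.8, 76.7, 79.1 and 80.2 TPM (log2 difference 0.54, SE 0.062, adjusted p = 2.05e-05), and in BxPC-3 experiment 2 with sgKLF5 (log2 difference 0.36, adjusted p = 0.00111). Its largest fall was in BxPC-3 experiment 2 with sgRPA3, to 64.9 and 67.9 TPM from 99.9, 102, 119 and 126 TPM (log2 difference -0.73, SE 0.091, adjusted p = 8.82e-05). RUVBL2 fell in the same BxPC-3 libraries (log2 difference -0.47, adjusted p = 0.0323) and in T3M-4 experiment 2 with sgCDK1 and sgRPA3. The ATPase mRNAs were thus also lower in some knockouts of genes that dividing cells need. KLF5 knockout had no steady effect on RUVBL1, which fell in BxPC-3 experiment 1 (log2 difference -0.26, adjusted p = 0.0469) and T3M-4 experiment 2 (log2 difference -0.18, adjusted p = 0.01) and rose in BxPC-3 experiment 2. The BxPC-3 experiment 1 fall did not pass under median-of-ratios scaling (-0.24, adjusted p = 0.206).

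PDRG1 passed in 4 of 20 other knockouts, at a smaller size. It rose in BxPC-3 experiment 2 with sgKLF5 (log2 difference 0.38, adjusted p = 0.0499), in BxPC-3 experiment 1 with sgKLF5 and in AsPC-1 with sgCHD4, and it fell in T3M-4 experiment 2 with sgRPA3 (log2 difference -0.23, adjusted p = 0.0334). Its differences over the 20 ran from -0.23 to 0.38, against 0.45 to 1.58 over the 9 ATPase knockouts. Under median-of-ratios scaling the 2 PDRG1 calls with sgKLF5 in BxPC-3 were lost (0.33, adjusted p = 0.0676; 0.28, adjusted p = 0.118), and the lowest ATPase knockout value was 0.19, in T3M-4 sgRUVBL1. RPAP3 rose at most in AsPC-1 experiment 3 with sgKLF5 (log2 difference 0.44, adjusted p = 0.00648), where it had also risen in the ATPase knockouts against the same sgRosa libraries, and fell in BxPC-3 experiment 2 with sgRPA3 (log2 difference -0.43, adjusted p = 0.0349). PIH1D1 fell in T3M-4 experiment 2 with sgCDK1 (log2 difference -0.31, adjusted p = 0.0323), WDR92 rose in AsPC-1 with sgCHD4 (log2 difference 0.24, adjusted p = 0.0157), and URI1 and UXT passed in none.

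The members called in these knockouts are given beside the share of all genes called. In AsPC-1, 3 of 8 passed with sgCHD4 beside 50.0%, 1 with sgKLF5 in experiment 3 beside 27.8%, and none with sgKLF5 in experiment 1 beside 25.9%, with sgSERPINB5 beside 0.0343%, with sgCDK1 beside 16.7% or with sgRPA3 beside 0.654%. In BxPC-3, 3 passed with sgKLF5 in experiment 2 beside 34.6%, 3 with sgRPA3 beside 20.8%, none with sgCDK1 beside 5.82%, 2 with sgKLF5 in experiment 1 beside 16.2% and none with sgRPA3 there beside 0.307%. In CFPAC-1, 1 passed with sgRPA3 beside 11.6%, none with sgKLF5 beside 16.2% and none with sgCDK1, where limma called 0.00% of genes and 1477 had an unadjusted p under 0.05. In T3M-4, 3 passed with sgCDK1 beside 16.8%, 3 with sgRPA3 beside 24.6%, 1 with sgKLF5 beside 34.6%, and in experiment 1 none with sgKLF5 beside 5.72% or sgRPA3 beside 0.00% (189 genes at an unadjusted p under 0.05 in limma). In SUIT-2 none passed with sgKLF5 beside 3.94%.

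The level of the 8 mRNAs in untreated cells was taken from 52 sgRosa and DMSO libraries of the 9 lines. UXT had the highest median (166 TPM), followed by RUVBL2 (141 TPM) and RUVBL1 (132 TPM), and all 3 stood above at least 91.5% of the 13821 genes at 1 TPM or more. PIH1D1 had a median of 83.6 TPM, URI1 56.2 TPM, PDRG1 42.5 TPM, RPAP3 31.6 TPM and WDR92 13.4 TPM, so the members of one particle differed more than 10-fold in mRNA. RUVBL1 was highest in A-375 (228 ± 8.74 TPM, SD, n = 4), apart from the next line, and lowest in AsPC-1 (86.4 ± 10.2 TPM, SD, n = 15). The order between was RH30, CFPAC-1, H1048, T3M-4, T84, BxPC-3 and SUIT-2, and within it only T3M-4 and T84 did not overlap as neighbours. RUVBL2 was highest in A-375 (263 ± 13.5 TPM, SD, n = 4) and BxPC-3 (222 ± 18.6 TPM, SD, n = 6) and lowest in H1048 (105 ± 6.50 TPM, SD, n = 4), with CFPAC-1, RH30, T3M-4, T84, AsPC-1 and SUIT-2 between. Only BxPC-3 and CFPAC-1 did not overlap as neighbours in that order.

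Among the partners, PDRG1 was highest in RH30 (93.2 ± 3.23 TPM, SD, n = 4) and lowest in AsPC-1 (26.2 ± 3.01 TPM, SD, n = 15), the line with its largest rise after knockout. The order between was H1048, T3M-4, T84, BxPC-3, CFPAC-1, A-375 and SUIT-2, and RH30 and T3M-4 stood apart from the next line. URI1 was highest in RH30 (103 ± 3.38 TPM, SD, n = 4) and lowest in SUIT-2 (25.0 ± 5.75 TPM, SD, n = 4), where 1 library lay far below the rest. UXT was highest in T84 (319 ± 12.1 TPM, SD, n = 4) and lowest in BxPC-3 (136 ± 6.70 TPM, SD, n = 6). PIH1D1 was highest in H1048 (156 ± 4.26 TPM, SD, n = 4) and lowest in T84 (61.1 ± 2.42 TPM, SD, n = 4), next to AsPC-1 (61.3 ± 5.15 TPM, SD, n = 15). RPAP3 ran from 48.6 ± 1.22 TPM (SD, n = 4) in A-375 to 20.1 ± 1.75 TPM (SD, n = 7) in T3M-4, and each line overlapped its neighbour. WDR92 ran from 21.5 ± 0.552 TPM (SD, n = 4) in RH30 to 8.49 ± 3.23 TPM (SD, n = 4) in SUIT-2, and RH30 alone stood apart. These levels are set across tables, and whether the tables were normalised together is not known, so line and experiment cannot be told apart where a line has 1 experiment.

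**Figure D5:**
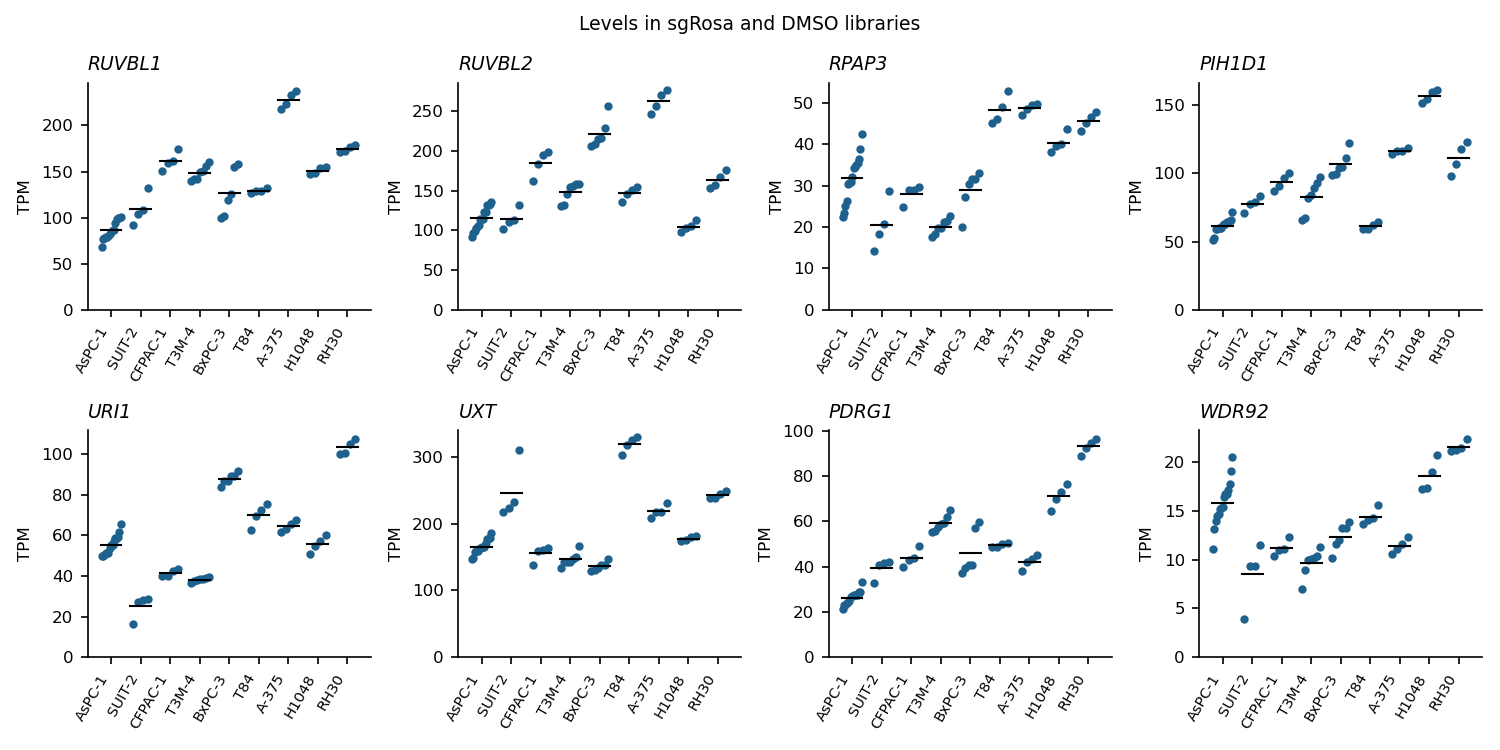
TPM of the 8 genes in the sgRosa and DMSO libraries of each line, 1 point per library, ordered by value within a line, with the mean as a bar. RUVBL1 and RUVBL2 are highest in A-375 (228 and 263 TPM on average), UXT in T84 and PDRG1, URI1 and WDR92 in RH30.

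The wider pathway was read through 5 lists, chosen with earlier results of these data known. Of the chaperone list of R2TP-like subunits, HSP90 and adaptors (16 of 17 genes had a row), between 0 and 10 genes were called higher and between 0 and 9 lower in the 19 ATPase knockout and CB-6644 comparisons. Of all genes, 2.83% to 45.9% were called higher and 5.48% to 37.3% lower in the knockouts. After CB-6644 these shares were 0.0326% to 53.9% and 0.00816% to 29.7%, and the counts of every list are to be read beside them. ZNHIT3, an adaptor of snoRNP assembly, rose in 8 of 9 knockouts (median log2 difference 0.48) and 7 of 10 CB-6644 comparisons (median 0.44). ECD, an adaptor of PIH1D1, rose in 8 of 9 knockouts (median 0.27). After CB-6644, however, ECD was called lower in 4 of 10 comparisons and higher in 1 (median -0.068). HSP90AB1, the constitutive HSP90, fell in 6 of 9 knockouts (median -0.18) and 7 of 10 CB-6644 comparisons (median -0.35), and PFDN2, a prefoldin that is also in the URI module, fell in 7 of 10 (median -0.37). PDRG1 and ZNHIT3 thus rose in most comparisons of both kinds, while HSP90AB1 fell in most of both.

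Among the RUVBL-containing chromatin complexes (15 genes), KAT5, the acetyltransferase of the TIP60 complex, had the largest change after CB-6644. KAT5 fell in 8 of 10 comparisons with a median of -1.47. In the knockouts KAT5 was called lower in 4 of 9, with a median of only -0.16. In A-375 KAT5 was 8.91 to 12.3 TPM against 40.4 to 43.3 TPM (log2 difference -1.88, adjusted p = 1.51e-09), and in T84 11.6 to 14.1 TPM against 39.1 to 43.97 TPM (log2 difference -1.61, adjusted p = 3.41e-11). The KAT5 groups did not overlap in either line. YEATS4, a subunit shared by SRCAP and TIP60, fell in 6 of 10 CB-6644 comparisons (median -0.76) and 7 of 9 knockouts (median -0.53). ZNHIT1, a subunit of SRCAP, rose in 6 of 10 (median 0.29) and 6 of 9 (median 0.23), and ACTR6, of the same complex, in 5 of 9 knockouts (median 0.33). In the 4 lines without a vector, between 7 and 11 of the 15 genes were called lower after CB-6644 and 2 to 4 higher, while 24.0% to 29.7% of all genes tested were called lower and 47.2% to 53.9% higher. The list medians ran from -0.26 to -0.089 beside medians of 0.13 to 0.18 over all genes.

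The PIKK kinases and the TTT complex that loads them on R2TP (9 genes) were called higher after CB-6644 in part. MTOR was called higher in 7 of 10 (median 0.31) and SMG1 and ATR in 6 of 10 (medians 0.39 and 0.38). TTI1, TTI2 and TRRAP of the same list were called higher in at most 2 and lower in 1. In the 4 lines without a vector 5 to 7 of 9 were called higher, beside 47.2% to 53.9% of all genes. No gene of this list was called in most knockouts, and in CFPAC-1 after sgRUVBL1, 7 of 9 were called lower (list median -0.70 beside -0.20 over all genes). Of the snoRNP core proteins (8 genes), FBL, the box C/D methyltransferase, fell in 8 of 10 CB-6644 comparisons (median -0.27) and 7 of 9 knockouts (median -0.29). GAR1 and DKC1, of the box H/ACA particle, fell in 6 of 10 each (medians -0.50 and -0.36), and NOP58 rose in 6 of 9 knockouts (median 0.39). NOP56 was called higher in 5 of 10 CB-6644 comparisons and lower in 2 (median 0.094), and lower in 4 of 9 knockouts (median -0.25). After CB-6644, NHP2 and SNU13 were called lower in 4 of 10 each and NOP10 in 2, and NOP58 higher in 2 and lower in 1. Of canonical prefoldin and the CCT chaperonin (12 genes), PFDN4, CCT5 and CCT2 fell in 7 of 10 CB-6644 comparisons each (medians -0.33, -0.33 and -0.27). CCT3, CCT6A and CCT4 were called lower in 6 of 10 each, TCP1 in 3 and CCT7 in 2. PFDN1, by contrast, was called higher in 6 of 10 (median 0.21), CCT8 in 4 and VBP1 and PFDN5 in 3 each. PFDN1 and PFDN5 rose in 8 and 5 of 9 knockouts (medians 0.24 and 0.16). Beside these counts, 0.00816% to 29.7% of all genes were called lower and 0.0326% to 53.9% higher per CB-6644 comparison. In the knockouts 2.83% to 45.9% were called higher and 5.48% to 37.3% lower. These are counts of calls without a test of the lists, and comparisons within an experiment share control libraries.

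The genes whose pattern was most like that of the 2 ATPases were sought over 83 treated libraries, leaving out every library with sgRUVBL1, sgRUVBL2, RUVBL1 A62T or RUVBL2 dF109. The measure was Pearson's r of the log2 difference from the control mean over 9545 genes with at least 1 TPM in every experiment, and it is a description, since libraries of a group share line, controls and treatment. For RUVBL1 the 5 nearest genes were CCT3 (r = 0.83), EIF5A (r = 0.82), MRTO4 (r = 0.81), CCT5 (r = 0.81) and CTPS1 (r = 0.81). For RUVBL2 they were NME2 (r = 0.74), AURKAIP1 (r = 0.73), EIF6 (r = 0.72), COMMD4 (r = 0.72) and POLR2E (r = 0.72). RUVBL1 and RUVBL2 had r = 0.45 with each other, which ranks RUVBL2 at 681 of 9545 for RUVBL1 and RUVBL1 at 255 for RUVBL2. CCT3 and CCT5 are subunits of the CCT chaperonin, and POLR2E is the RNA polymerase subunit that is also found with the URI module.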

How the data were processed

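RNA was isolated by the submitters on day 5 after sgRNA infection or after 24 h of CB-6644 or DMSO. Poly-A libraries were read from a single end. The authors quantified them against hg38 with kallisto (both also in the submitters' processing notes), removed low-abundance transcripts at a limit not given in the sources used here, and summarised transcripts to genes. The deposited unit is TPM, which adds up to 1e+06 in each library, so depth is unknown and no counting interval is given. One T3M-4 sgRUVBL1 sample that the study left out is not analysed here. Groups came from the sample labels, and all 183 value columns were matched to a sample by name.

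Here log2(TPM + 1) was computed. All libraries of a line and experiment entered 1 limma fit (3.58.1, R 4.3.3; empirical Bayes with trend), restricted to genes whose mean reached 1 TPM, with Benjamini-Hochberg adjustment over all genes tested and a threshold of 0.05. No covariate was used. Differences between lines were F tests in a fit of the experiments together. The fit was tested on simulated data.

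The 8 members and the lists were chosen with earlier results of these data known. Values are given for RUVBL1 and RUVBL2 in every sgRUVBL1, sgRUVBL2 and CB-6644 comparison, for a partner where its adjusted p is below 0.05, and for the other knockouts as counts with the largest rise and fall. From each list at most 3 genes called in 1 direction in most comparisons are named by rule, and 5 genes by likeness. Further list genes are named to give the other calls. KAT5 values in A-375 and T84, and the 2 promoters shown, were chosen after values were seen. DPCD had no row, and NOPCHAP1 was matched under its older symbol. Pairs of libraries of a group shared no identical columns (0% equal values over 230 pairs among expressed genes). Replicate numbers of the labels were not used as a block, since same-numbered libraries did not deviate together in every pair of any fit. Alternatives were a stricter filter (5 TPM) or none, a smaller pseudocount (0.1), median-of-ratios scaling, fits of only the groups compared, the replicate block, pooled DMSO libraries and leaving out each library. Promoters and coordinates came from RefSeq (GRCh38.p14) and GENCODE (hg38). Figures were drawn with matplotlib 3.10.9.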

Additional observations from a re-analysis of the deposited data

Results flagged for a closer look

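Single libraries stood apart from the rest of their group in 17 of 240 combinations of a gene and a group of 4 to 10 libraries, where chance alone gives about 5%. In the ATPase knockouts these were RUVBL2 in CFPAC-1 sgRUVBL1 replicate 3 (204 TPM, others 178 to 179.9), WDR92 in CFPAC-1 sgRUVBL1 replicate 1 (7.38 TPM, others 8.001 to 8.11) and PIH1D1 in AsPC-1 experiment 3 sgRUVBL2 replicate 1 (47.8 TPM, others 40.5 to 41.4). After CB-6644 they were PIH1D1 in A-375 replicate 4 (116 TPM, others 109 to 109.7) and RUVBL1 in H1048 replicate 4 (135 TPM, others 123 to 124). Among sgRosa libraries, SUIT-2 replicate 1 stood apart for URI1 (16.5 TPM, others 27.1 to 28.5), UXT (310.3 TPM, others 217 to 232) and PDRG1 (32.9 TPM, others 40.7 to 42.2), CFPAC-1 replicate 3 for RPAP3 (24.8 TPM, others 28.8 to 29.6), CFPAC-1 replicate 2 for UXT (139 TPM, others 159.6 to 163) and AsPC-1 experiment 3 replicate 3 for PIH1D1 (52.3 TPM, others 58.8 to 59.8). In sgKLF5 libraries they were UXT in T3M-4 experiment 1 replicate 2 (254 TPM, others 139 to 149.7), PDRG1 in BxPC-3 experiment 1 replicate 4 (73.02 TPM, others 68.8 to 69.5), WDR92 in AsPC-1 experiment 1 replicate 4 (11.5 TPM, others 14.7 to 16.5) and in AsPC-1 experiment 3, WDR92 in replicate 2 (15.2 TPM, others 13.9 to 14.1) and RUVBL2 in replicate 1 (110.1 TPM, others 103 to 104). The last was RUVBL2 in sgCHD4 replicate 1 (119.7 TPM, others 112 to 113). What set these libraries apart was not tested.

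The change differed between lines, by limma's F test, for 19 of 24 genes and treatments. After sgRUVBL1 the adjusted p was 8.1e-09 for RUVBL1, 0.00393 for RUVBL2, 0.00513 for RPAP3, 0.00508 for PIH1D1, 2.5e-05 for UXT, 3.99e-07 for PDRG1 and 2.07e-05 for WDR92. After sgRUVBL2 it was 0.00786 for RUVBL1, 0.0104 for RUVBL2, 0.0168 for RPAP3, 0.0228 for URI1, 0.000534 for UXT, 4.6e-05 for PDRG1 and 0.0141 for WDR92, of which URI1 and WDR92 did not pass under median-of-ratios scaling (adjusted p = 0.16 and 0.183). After CB-6644 it was 6.79e-10 for PIH1D1, 0.00179 for URI1, 3.21e-07 for UXT, 4.12e-06 for PDRG1 and 3.1e-07 for WDR92.

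The CB-6644 response also differed by vector, in log2 units against empty vector. In AsPC-1 the difference with RUVBL1 A62T was 0.53 for RUVBL1, -0.37 for PIH1D1 and 0.33 for URI1, and with RUVBL2 dF109 it was 0.41 for RUVBL1, 0.37 for RUVBL2, -0.48 for PIH1D1 and 0.39 for URI1. In T3M-4 it was 0.54 for RUVBL1 with RUVBL1 A62T. Under median-of-ratios scaling those of RUVBL1 with RUVBL1 A62T and PIH1D1 in AsPC-1 still passed and the others did not. Each rests on 1 DMSO library per vector, and what part that library has in it was not tested.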

How the results depend on the processing

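Of the settings that kept every library, median-of-ratios scaling changed the most calls (35 of 191 lost and 39 gained over 496 tests). Under it the PDRG1 difference after CB-6644 was 0.062 in AsPC-1 with RUVBL2 dF109 (adjusted p = 0.541), 0.27 in T3M-4 with empty vector (adjusted p = 0.0831) and -0.073 in T3M-4 with RUVBL2 dF109, a change of sign (adjusted p = 0.66). After sgRUVBL1 in T3M-4 it was 0.19 (adjusted p = 0.0663), and after sgRUVBL2 in BxPC-3 0.52, which then passed (adjusted p = 0.0289). RUVBL1 was -0.33 in AsPC-1 with RUVBL2 dF109, which then passed (adjusted p = 0.0128), and -0.19 after sgRUVBL2 in BxPC-3 (adjusted p = 0.187), and RUVBL2 was 0.20 after sgRUVBL1 in AsPC-1 experiment 3 (adjusted p = 0.178). RPAP3 after CB-6644 changed sign, to -0.094 in A-375 (adjusted p = 0.0211), -0.056 in H1048 and -0.016 in RH30, as did WDR92 in AsPC-1 with RUVBL2 dF109 (-0.031). PDRG1 (-0.034) and URI1 (-0.029) in T3M-4 with RUVBL2 dF109 against empty vector did too. With only the groups compared in the fit, PDRG1 was 0.59 after sgRUVBL2 in CFPAC-1 (adjusted p = 0.0796) and 0.53 in T3M-4 with empty vector (adjusted p = 0.0915), RUVBL1 -0.26 after sgRUVBL2 in BxPC-3 and -0.35 in T3M-4 with empty vector (adjusted p = 0.121), and RUVBL2 -1.27 after sgRUVBL2 in BxPC-3 (adjusted p = 0.06), none past the threshold. Calls in the other knockouts were then 13 of 160 in place of 20. Without a filter RUVBL1 after sgRUVBL2 in BxPC-3 was -0.26 and did not pass (adjusted p = 0.0594). With the DMSO libraries of the 3 vectors together, PDRG1 in T3M-4 with empty vector was 0.18 (adjusted p = 0.3). The cause of these changes was not tested. Leaving out each library in turn, PDRG1 ran from 0.32 to 0.52 after sgRUVBL2 in BxPC-3 and from 0.52 to 0.67 in CFPAC-1, RUVBL1 after sgRUVBL2 in BxPC-3 from -0.31 to -0.20 and RUVBL2 after sgRUVBL1 in T3M-4 from -0.35 to -0.24. The replicate block, which pairs libraries by number only, kept 15 of 15 calls of RUVBL1 and RUVBL2 in the ATPase knockouts, 25 of 26 of the partners (1 other gained), 25 of 26 after CB-6644, 18 of 18 among the vectors and 15 of 20 in the other knockouts (1 other gained). The pathway list calls were 502 in the main fits and 451 to 512 under alternatives chosen after seeing the data (with the block, 396 against 402 over the same comparisons). Of the 19 line differences called, 17 were kept and 2 others gained under median-of-ratios scaling, and 19 were kept under each filter and the smaller pseudocount. Depth is unknown, so the precision rests on the spread between libraries.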
